A study of Homo sapiens with 6 samples.

Results

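The nuclear pore complex is the channel through which proteins and RNA pass the nuclear envelope. It is built from a scaffold of stacked rings, a central channel lined by proteins with phenylalanine-glycine (FG) repeats, filaments on the cytoplasmic side and a basket on the nuclear side. Beneath the inner nuclear membrane lies the lamina, a meshwork of A-type and B-type lamins, to which membrane proteins tie chromatin and the cytoskeleton.

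The genes described here are 42 of the 61860 rows of the count table. They were chosen by symbol and not by a cut on measured values, though earlier results of these data were known. They comprise 32 nucleoporin genes and 10 genes of the lamina and inner nuclear membrane. All 42 had a row, and all 42 passed the default low-count filter of edgeR. RNA was sequenced from 5637, an established human bladder cancer cell line, in 3 libraries labelled siNC, the control group, and 3 libraries labelled siYTHDC1. YTHDC1 encodes a nuclear reader of N6-methyladenosine in RNA, and the comparison asks how transcripts differ when it is targeted. The labels mention a transfection, an infection and a plasmid for all 6 libraries, so the reagent is unclear, and both groups were grown in the same serum-supplemented medium. Separate cultures are not stated for the replicates, so p-values cover only how these libraries vary, which may be technical variation.

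The libraries held 33223480 to 35607577 counts. YTHDC1 itself, in replicate order, had siNC counts of 50, 786 and 55 and siYTHDC1 counts of 161, 18 and 14. The groups overlapped, siNC replicate 2 being far above the other libraries. On the log2 scale edgeR put the difference at -2.20 ± 0.69 (SE; adjusted p = 0.00864), whereas without siNC replicate 2 it was 0.31 (edgeR adjusted p = 0.691). The group names below are therefore labels only, and each direction sets the siYTHDC1-labelled libraries against the siNC-labelled ones. All 10 urothelial and epithelial markers reached at least 1 count per 1000000 (CPM). Their summed level was 11710 to 11880 CPM in the siNC libraries and 6624 to 6745 CPM in the siYTHDC1 libraries. The 6 keratin genes and GATA3 were lower in every siYTHDC1 library, while EPCAM (179 to 184 against 199 to 201 CPM) and TP63 (196 to 210 against 227 to 236 CPM) were higher and CDH1 overlapped (238 to 243 against 236 to 244 CPM). Of the markers of other cell types, 2 of 6 fibroblast genes, 1 of 5 immune genes and 3 of 4 endothelial genes reached 1 CPM in any library. The fibroblast sum was 78.9 to 84.9 CPM in the siNC and 92.3 to 97.1 CPM in the siYTHDC1 libraries. The immune sum was 6.59 to 8.03 against 4.71 to 6.5 CPM, and the endothelial sum 5.52 to 7.79 against 6.00 to 7.51 CPM. DCN, CD3E and CD68 were at 0 in each library. The part of these differences in the results below was not tested.

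Of the 42 genes, 16 fell, 8 rose and 18 did not pass the test. A gene was called when its edgeR p-value, adjusted over all 17372 genes tested, was under 0.05. By that rule 53.4% of all genes tested were called, 26.3% having risen and 27.1% having fallen. With a filter of 1 CPM in 3 libraries instead, 4463 genes rose and 4533 fell of 14460 tested, a larger share. The shares of all genes called that are given below use the default low-count filter. Counts by role rest on few genes each and are to be read beside the same shares. The 24 called genes (57.1%) were thus close to the background in number, with 38.1% having fallen and 19.0% having risen. Most changes were small. The median log2 fold change of the 42 genes was -0.05, beside -0.0004 over all genes tested, and their median absolute log2 fold change was 0.13, beside 0.30. A called change of at least 0.5 on the log2 scale was reached by 4 of the 42 genes (SEC13, NUP50, LMNB1 and LEMD3), while 21.7% of all genes tested had one. The 42 genes were not matched in level to all genes tested, which include genes below 1 CPM. The part of level in these differences was not tested. CPM of the groups did not overlap in 25 of the 42 genes, beside 59.3% of all genes. In bulk RNA, fewer cells with a transcript and fewer transcripts per cell cannot be told apart.

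**Figure D1:**
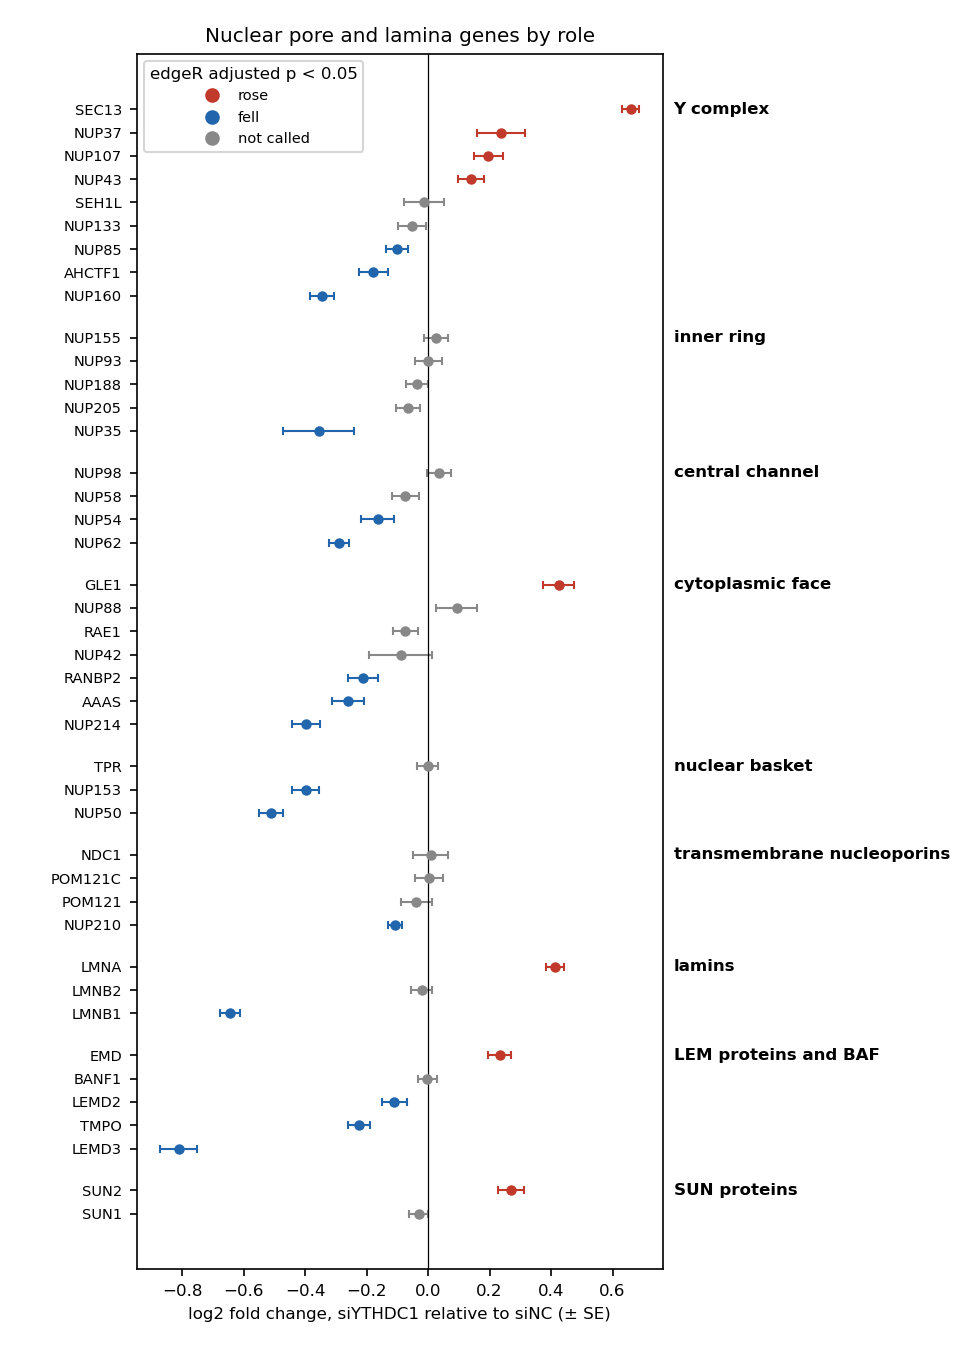
Log2 fold change (x axis) of each of the 42 genes (y axis, grouped by role), with bars for the SE from edgeR. The 8 genes that rose are red, the 16 that fell are blue and the 18 not called are grey. SEC13 lies farthest to the right and LEMD3 farthest to the left.

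**Figure D2:**
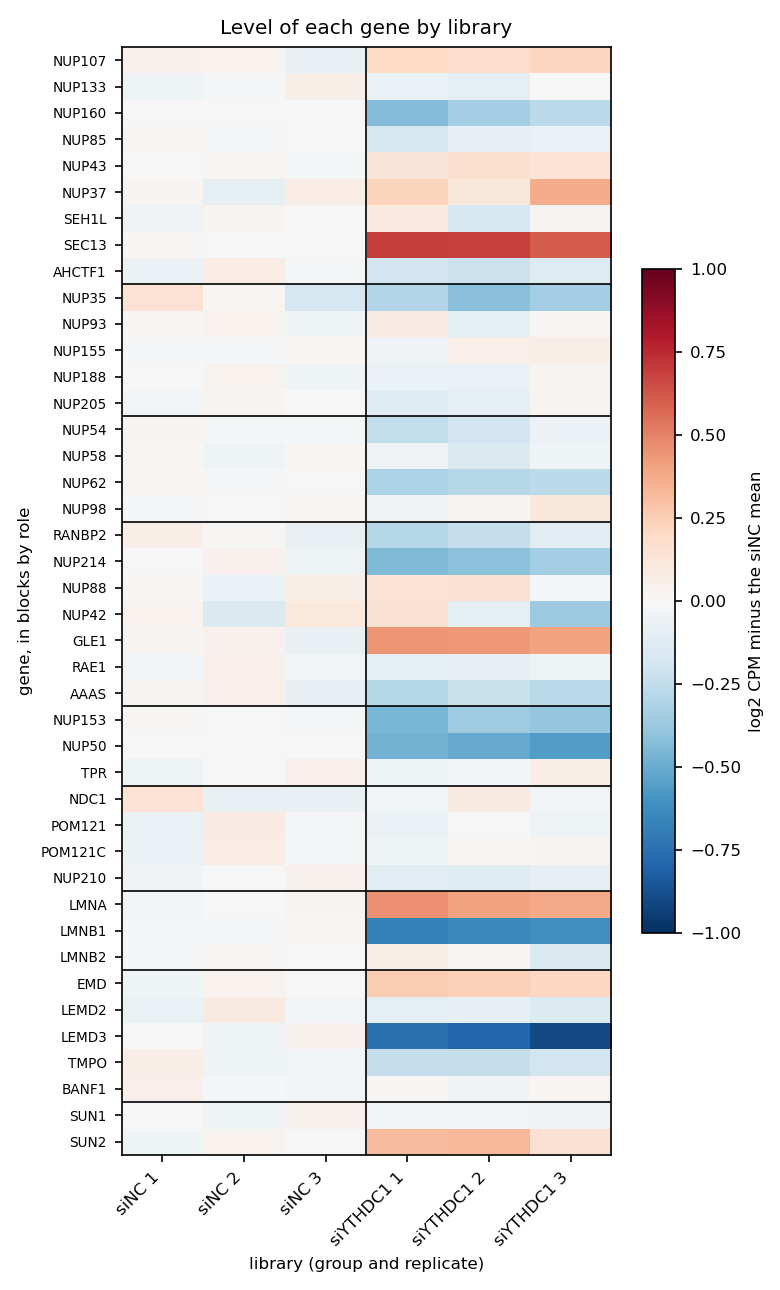
Log2 CPM of each gene (rows, in blocks by role) in each of the 6 libraries (columns), as the difference from the mean of the siNC libraries. LEMD3, LMNB1 and NUP50 are blue and SEC13, LMNA and GLE1 are red in all 3 siYTHDC1 libraries.

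The stretch around the transcription start is shown for the 4 genes that moved by at least 0.5 on the log2 scale, since these carry the largest changes of the set. The sequences are from RefSeq on GRCh38.p14, cover 250 bases before to 50 bases after the start, and are written 5′ to 3′ along the gene. Capitals mark the motifs described below.
LMNB1 (chr5:126776373-126776672, plus strand): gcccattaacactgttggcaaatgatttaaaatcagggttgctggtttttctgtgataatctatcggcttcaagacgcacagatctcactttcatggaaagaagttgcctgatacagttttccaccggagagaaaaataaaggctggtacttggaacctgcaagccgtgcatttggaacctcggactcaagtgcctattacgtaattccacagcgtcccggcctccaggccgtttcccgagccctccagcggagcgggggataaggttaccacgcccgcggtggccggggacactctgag
LEMD3 (chr12:65169333-65169632, plus strand): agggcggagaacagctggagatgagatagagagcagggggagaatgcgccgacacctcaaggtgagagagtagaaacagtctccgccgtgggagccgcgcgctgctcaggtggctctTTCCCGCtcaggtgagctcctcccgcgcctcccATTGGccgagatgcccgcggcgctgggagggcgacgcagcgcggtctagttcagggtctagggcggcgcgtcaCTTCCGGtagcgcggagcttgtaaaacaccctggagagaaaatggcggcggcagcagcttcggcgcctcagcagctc
NUP50 (chr22:45163675-45163974, plus strand): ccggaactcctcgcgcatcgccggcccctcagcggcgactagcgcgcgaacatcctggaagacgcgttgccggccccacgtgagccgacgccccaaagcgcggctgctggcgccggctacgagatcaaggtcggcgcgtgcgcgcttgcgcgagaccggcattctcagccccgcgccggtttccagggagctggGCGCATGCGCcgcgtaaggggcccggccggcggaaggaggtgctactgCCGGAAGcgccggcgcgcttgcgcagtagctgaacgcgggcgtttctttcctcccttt
SEC13 (chr3:10321063-10321362, minus strand): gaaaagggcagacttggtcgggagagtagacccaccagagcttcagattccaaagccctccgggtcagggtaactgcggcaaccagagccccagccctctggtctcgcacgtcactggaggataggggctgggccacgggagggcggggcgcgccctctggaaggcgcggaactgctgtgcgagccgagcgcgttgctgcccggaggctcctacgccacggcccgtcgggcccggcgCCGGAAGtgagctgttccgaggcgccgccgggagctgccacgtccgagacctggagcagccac
Promoter sequences were matched for 38 of the 42 genes and searched on both strands, and the background was the promoters of 11891 genes tested. The ETS core CCGGAAG was found in 16 of the 38 promoters (42.1%), beside 18.0% of the background. An E2F-type match (TTCCCGC or TTGGCGC) was found in 10 (26.3%), beside 14.3%. The CCAAT box, CCAAT, was found in 16 (42.1%), beside 36.1%. The cAMP response element TGACGTCA was found in 3 (7.89%), beside 3.03%, and the NRF1 motif also in 3, beside 2.25%. The endoplasmic reticulum stress element, which contains the CCAAT box, was found in 0 of the 38 (0.118% of the background), and TGATGNAA, a form of the amino acid response element, in 1. ETS matches lay in 3 of 6 genes that rose, 6 of 15 that fell and 7 of 17 that were not called. E2F-type matches lay in 2 of 6, 5 of 15 and 3 of 17. Of the promoters printed, that of LMNB1 held 0 of these motifs, that of SEC13 an ETS match, that of NUP50 an NRF1 and an ETS match, and that of LEMD3 an E2F-type, a CCAAT and an ETS match. These matches are a description of letters and not of binding.

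The lamin genes diverged: LMNB1 fell, LMNA rose and LMNB2 did not pass the test. LMNB1 (ENSG00000113368, 5:126776623-126837020, up to 12 exons; positions are on hg38, from GENCODE release 29) encodes lamin B1, a B-type lamin that stays anchored to the membrane by its farnesyl group. It had siNC counts of 7398, 7198 and 7355 and siYTHDC1 counts of 4596, 4487 and 4693, so that every siYTHDC1 library was below every siNC library. Its level went from 210.1 ± 2.06 to 134 ± 2.79 CPM (SD, n = 3 each), or -0.64 ± 0.03 on the log2 scale (SE; edgeR adjusted p = 3.84e-15). LMNA (ENSG00000160789, 1:156082573-156140089, up to 13 exons) encodes lamins A and C, splice products that a count per gene does not separate. Its siNC counts were 12625, 12505 and 12767 and its siYTHDC1 counts 17424, 15971 and 16108, with no overlap. The level rose from 363 ± 6.17 to 483 ± 14.4 CPM (SD, n = 3 each), or 0.41 ± 0.03 on the log2 scale (SE; edgeR adjusted p = 1.23e-12). LMNB2, the gene of the other B-type lamin, had siNC counts of 19521, 19415 and 19367 and siYTHDC1 counts of 20334, 18734 and 17277. Those groups overlapped, siYTHDC1 replicate 3 being the lowest of the 6 libraries in counts, and edgeR gave -0.02 ± 0.03 on the log2 scale (SE; adjusted p = 0.629).

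Ratios between genes within a library do not depend on the scaling of libraries. LMNB1 counts per LMNA count were 0.586, 0.576 and 0.576 for siNC and 0.264, 0.281 and 0.291 for siYTHDC1. The difference of the log2 ratio was -1.06. Relative to LMNB2 the ratio of LMNB1 went from 0.377 ± 0.00500 to 0.246 ± 0.0234 (SD, n = 3 each), a log2 difference of -0.62. In both ratios the 3 siYTHDC1 libraries lay below the 3 siNC libraries. An exact 2-sided permutation test gave p = 0.1 for each, the smallest value that 3 against 3 libraries allow.

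**Figure D3:**
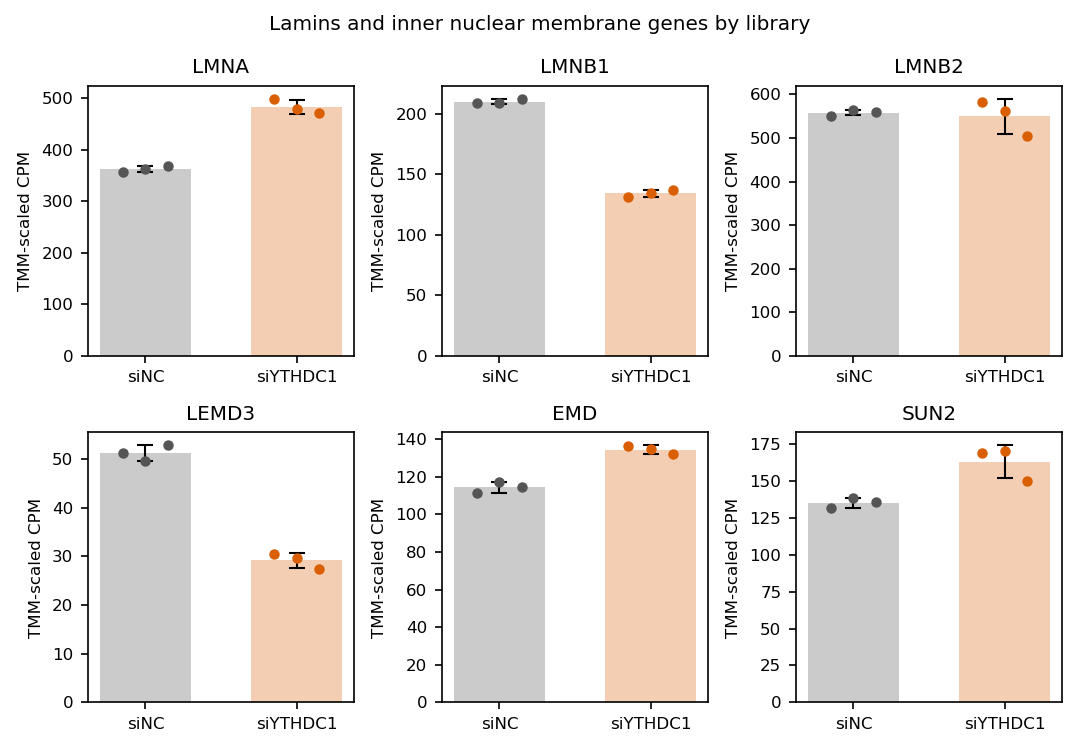
TMM-scaled CPM (y axis) of 6 genes of the lamina and inner nuclear membrane in the siNC and siYTHDC1 libraries. Points are libraries, bars are means and error bars are SD over 3 libraries. LMNA, EMD and SUN2 are higher and LMNB1 and LEMD3 lower in every siYTHDC1 library, and the LMNB2 groups overlap.

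**Figure D4:**
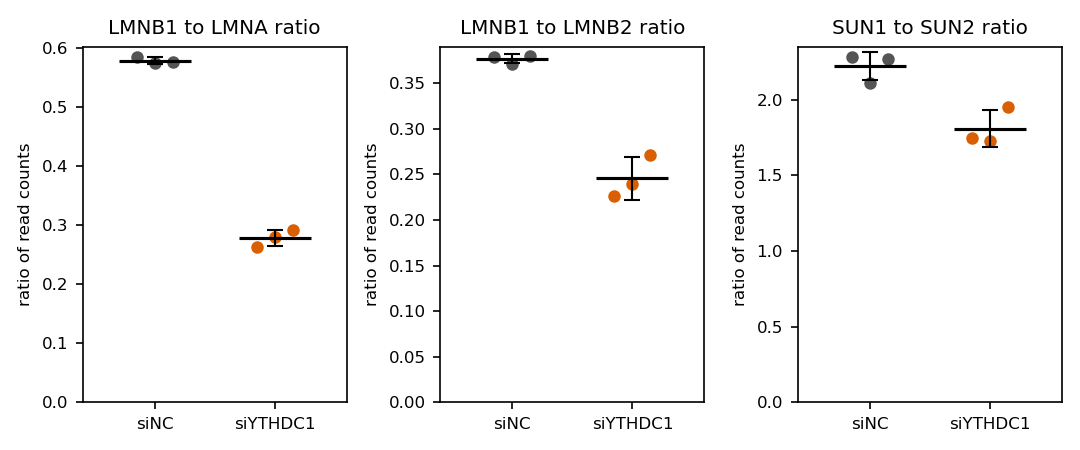
Ratio of read counts (y axis) of LMNB1 to LMNA, LMNB1 to LMNB2 and SUN1 to SUN2 in each library (points), with the mean (line) and SD (error bars) of 3 libraries per group. Each ratio is lower in all 3 siYTHDC1 libraries than in any siNC library.

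Among the genes of the LEM-domain proteins and their DNA-bridging partner BANF1, 3 fell, 1 rose and 1 was not called. LEMD3 (ENSG00000174106, 12:65169571-65248327, up to 13 exons) encodes MAN1, an inner membrane protein that binds SMAD proteins and restrains TGF-beta signalling. It had the largest fall of the 42 genes, with siNC counts of 1813, 1707 and 1827 and siYTHDC1 counts of 1066, 986 and 938. This was a change from 51.2 ± 1.62 to 29.2 ± 1.59 CPM (SD, n = 3 each), or -0.81 ± 0.06 on the log2 scale (SE; edgeR adjusted p = 6.67e-12), and the groups lay far apart. TMPO, the gene of the LAP2 proteins that bind lamins and chromatin, had siNC counts of 7343, 6620 and 6712 and siYTHDC1 counts of 5844, 5575 and 5930. It fell by 0.22 on the log2 scale (edgeR adjusted p = 5.10e-06), with no overlap in CPM. The exons of its antisense gene TMPO-AS1 cover 8.3% of its exonic bases, and although the library kit marks strand, the strand setting of the counting is not stated. EMD encodes emerin, the protein absent in X-linked Emery-Dreifuss muscular dystrophy, and moved the other way. Its siNC counts were 3939, 4046 and 3960 and its siYTHDC1 counts 4772, 4487 and 4517, a difference of 0.23 ± 0.04 on the log2 scale (SE; edgeR adjusted p = 6.05e-06). LEMD2 fell by 0.11 on the log2 scale (edgeR adjusted p = 0.0211), a call that was lost without siNC replicate 2 (-0.07; edgeR adjusted p = 0.21, in a range of 0.00717 to 0.254 over all alternatives). BANF1, the barrier-to-autointegration factor gene, was nearly equal in the groups (log2 fold change -0.003 ± 0.03, SE).

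SUN1 and SUN2 encode the inner membrane side of the bridge between the nucleoskeleton and the cytoskeleton. SUN2 had siNC counts of 4652, 4764 and 4705 and siYTHDC1 counts of 5888, 5667 and 5135 and rose by 0.27 ± 0.04 on the log2 scale (SE; edgeR adjusted p = 3.77e-06). SUN1 had siNC counts of 10620, 10065 and 10681 and siYTHDC1 counts of 10293, 9799 and 10012, and edgeR gave -0.03 ± 0.03 on the log2 scale (SE; adjusted p = 0.397). All siYTHDC1 libraries were thus above the siNC libraries for SUN2, while the groups overlapped for SUN1. SUN1 counts per SUN2 count were 2.28, 2.11 and 2.27 for siNC and 1.75, 1.73 and 1.95 for siYTHDC1 (log2 difference -0.30; exact 2-sided permutation p = 0.1, the smallest possible). Both values may hold reads of neighbours: exons of GET4, on the same strand, cover 15.6% of SUN1 exonic bases, and genes on the other strand, GTPBP1 among them, cover 23.4% of SUN2.

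The Y complex, which forms the outer rings of the pore scaffold, moved in both directions. Of its 9 genes, 4 rose, 3 fell and 2 were not called, beside 26.3% risen and 27.1% fallen of all genes tested. SEC13 (ENSG00000157020, 3:10293131-10321178, up to 10 exons) encodes a subunit shared with the COPII vesicle coat and with the GATOR2 complex of nutrient signalling. It had siNC counts of 13254, 12733 and 12779 and siYTHDC1 counts of 20922, 19812 and 19265, the largest rise of the 42 genes. The level went from 371 ± 2.83 to 586 ± 19.7 CPM (SD, n = 3 each), or 0.66 ± 0.03 on the log2 scale (SE; edgeR adjusted p = 3.80e-17). NUP160 (ENSG00000030066, 11:47778087-47848555, up to 36 exons), a long scaffold subunit, had siNC counts of 6186, 6039 and 6087 and siYTHDC1 counts of 4531, 4623 and 4985. It fell by 0.34 on the log2 scale (edgeR adjusted p = 1.65e-08), the groups not overlapping. NUP37, a small subunit that binds NUP160, had siNC counts of 809, 724 and 817 and siYTHDC1 counts of 914, 811 and 993, and siYTHDC1 replicate 2 was close to the highest siNC library, without overlap in CPM. It rose by 0.24 ± 0.08 (SE; edgeR adjusted p = 0.0124), but not without siNC replicate 2 (0.19; edgeR adjusted p = 0.0779) or without siYTHDC1 replicate 3 (0.16; edgeR adjusted p = 0.107), in a range of 0.00555 to 0.107 over all alternatives.

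The other changes in the Y complex were at most 0.2 on the log2 scale. NUP107 rose by 0.20 ± 0.05 and NUP43 by 0.14 ± 0.04 (SE). NUP85 fell by 0.10 and AHCTF1 by 0.18, the latter being the gene of ELYS, which starts pore assembly on chromatin after mitosis. NUP85 lost its call without siNC replicate 1 (-0.10; edgeR adjusted p = 0.0547) and without siYTHDC1 replicate 1 (-0.07; edgeR adjusted p = 0.124), in a range of 0.00513 to 0.154 over all alternatives. Of the 75-base words of AHCTF1 35.1% recur in other genes, chiefly its pseudogene AHCTF1P1, which had 186 to 271 counts per library. With those counts added the log2 ratio was -0.18, as without them. SEH1L, shared with GATOR2 like SEC13, and NUP133 were not called, with log2 fold changes of -0.01 ± 0.07 and -0.05 ± 0.04 (SE).

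Levels of the Y complex genes differed widely per length. Per kilobase of exonic sequence the siNC level was 68.1 ± 0.519 CPM for SEC13 and 28.6 ± 0.301 CPM for NUP85, the highest of the 9, and 3.76 ± 0.0766 CPM for SEH1L, the lowest (SD, n = 3). In the siYTHDC1 libraries the level of SEC13 per kilobase was 108 ± 3.61 CPM and that of NUP160 16.1 ± 0.934 CPM. SEC13 was thus farther above the other 8 in the siYTHDC1 libraries. With the longest transcript as the length, SEC13 (156 CPM) and NUP85 (66.4 CPM) were again the highest and SEH1L (7.56 CPM) the lowest in the siNC libraries. Over all 42 genes the siNC level per kilobase of exonic sequence ran from 2.42 ± 0.263 CPM for NUP35 to 152 ± 4.5 CPM for BANF1.

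The inner ring, the scaffold layer next to the pore membrane, changed little. Of its 5 genes 4 were not called: NUP155 (log2 fold change 0.03), NUP93 (0.0009), NUP188 (-0.04) and NUP205 (-0.07), with SE of 0.04 each. NUP205 passed only in the fit without siYTHDC1 replicate 3 (-0.11; edgeR adjusted p = 0.00779, in a range of 0.00779 to 0.736). NUP35, which binds the membrane and links the ring subunits, was the scarcest of the 42 genes per length. It had siNC counts of 383, 341 and 301 and siYTHDC1 counts of 278, 243 and 264. The lowest siNC library was close to the highest siYTHDC1 library. It fell by 0.36 on the log2 scale (edgeR adjusted p = 0.0117), a call lost without siNC replicate 1 (-0.28; edgeR adjusted p = 0.0777, in a range of 0.00516 to 0.0777).

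In the central channel, where FG repeats form the permeability barrier, 2 of 4 genes fell and 0 rose. NUP62 had siNC counts of 8263, 7823 and 7936 and siYTHDC1 counts of 6437, 6281 and 6553, well separated. It fell by 0.29 on the log2 scale (edgeR adjusted p = 1.35e-08). Same-strand neighbours, IL4I1 among them, have exons over 12.0% of its exonic bases, and ATF5, on the other strand, over 10.4%. NUP54, which joins NUP62 in the channel trimer, had siNC counts of 2033, 1932 and 1937 and siYTHDC1 counts of 1660, 1647 and 1855. The gap between the groups was small. NUP54 fell by 0.16 (edgeR adjusted p = 0.0123), but not without siYTHDC1 replicate 1 (-0.12; edgeR adjusted p = 0.0851) or replicate 2 (-0.15; edgeR adjusted p = 0.0505), in a range of 0.00115 to 0.113 over all alternatives. NUP58, the remaining trimer gene, had a log2 fold change of -0.07 ± 0.04 (SE), and NUP98 one of 0.04 ± 0.04 (SE). The row of NUP98 also counts NUP96, a Y complex subunit cut from the same precursor.

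On the cytoplasmic face, where exported mRNA is released, GLE1 rose, 3 genes fell and 3 were not called. GLE1 encodes the activator of the DDX19 helicase in mRNA export. It had siNC counts of 1780, 1745 and 1622 and siYTHDC1 counts of 2337, 2209 and 2229, a rise from 49.2 ± 2.08 to 66.1 ± 0.897 CPM (SD, n = 3 each), or 0.42 ± 0.05 on the log2 scale (SE; edgeR adjusted p = 4.76e-08). Each siYTHDC1 library was above the siNC libraries. NUP214, the FG protein that docks the helicase, moved the opposite way, with siNC counts of 3271, 3274 and 3079 and siYTHDC1 counts of 2375, 2309 and 2484. It fell by 0.40 on the log2 scale (edgeR adjusted p = 1.84e-08), also with no overlap. Exons on the other strand cover 9.16% of NUP214 exonic bases. AAAS, whose protein ALADIN is affected in Allgrove syndrome, had siNC counts of 2163, 2143 and 1964 and siYTHDC1 counts of 1716, 1709 and 1705. This fall of 0.26 on the log2 scale (edgeR adjusted p = 1.17e-04) again separated the groups, although the siNC libraries spread more than the siYTHDC1 libraries.

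RANBP2, the SUMO ligase and Ran-binding protein of the cytoplasmic filaments, fell by 0.21 on the log2 scale (edgeR adjusted p = 4.57e-04). It shares 20.1% of its 75-base words with other genes, chiefly the RGPD family, whose 7 rows together had 85 to 222 counts per library. With these added the log2 ratio was -0.20, beside -0.21 for RANBP2 alone. NUP88, the partner of NUP214, was not called (0.09 ± 0.07, SE), and 18.7% of its exonic bases lie under exons on the other strand. NUP42, which binds GLE1, was not called either (-0.09 ± 0.10, SE), but its value was -0.30 (edgeR adjusted p = 0.0257, in a range of 0.0257 to 0.841) when siNC replicate 2 and siYTHDC1 replicate 1 were both left out. RAE1, an mRNA export factor that binds NUP98, had no overlap in CPM between the groups but did not pass the test (-0.07 ± 0.04, SE; edgeR adjusted p = 0.122).

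In the nuclear basket, NUP50 and NUP153 fell and TPR did not pass the test. NUP50 (ENSG00000093000, 22:45163841-45188015, up to 9 exons) encodes a mobile nucleoporin that helps release cargo from importin alpha. It had siNC counts of 4911, 4762 and 4822 and siYTHDC1 counts of 3497, 3254 and 3224. Its level went from 139 ± 0.547 to 97.3 ± 2.96 CPM (SD, n = 3 each), or -0.51 ± 0.04 on the log2 scale (SE; edgeR adjusted p = 6.13e-12), the largest fall among the nucleoporins. NUP153, which anchors the basket and binds lamins, had siNC counts of 3226, 3126 and 3108 and siYTHDC1 counts of 2305, 2357 and 2375. It fell by 0.40 on the log2 scale (edgeR adjusted p = 1.22e-08), with every siYTHDC1 library below the siNC libraries. Exons on the other strand cover 9.25% of NUP153 exonic bases. TPR, the coiled-coil protein that forms the basket filaments, had overlapping groups and a log2 fold change of -0.002 ± 0.04 (SE). NUP50 shares 5.85% of its 75-base words with other genes.

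The transmembrane nucleoporins, which hold the pore in the membrane, changed little, with 1 fall and 3 genes not called. NUP210 had the highest siNC level of the nucleoporins per kilobase of exonic sequence, 120.2 ± 3.21 CPM (SD, n = 3), but with the longest transcript as the length it was at 137 CPM, below SEC13. It had siNC counts of 33986, 33709 and 35013 and siYTHDC1 counts of 31672, 30078 and 31772. It fell by 0.11 on the log2 scale (edgeR adjusted p = 4.01e-04), with no overlap between the groups. NDC1 (0.01 ± 0.06), POM121 (-0.04 ± 0.05) and POM121C (0.003 ± 0.04) were not called (log2 fold change, SE). POM121 and POM121C are related copies that share 29.3% and 39.3% of their 75-base words with other genes, chiefly each other, so their separate values are uncertain. Summed with the copy POM121B, their log2 ratio was -0.02.

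**Figure D5:**
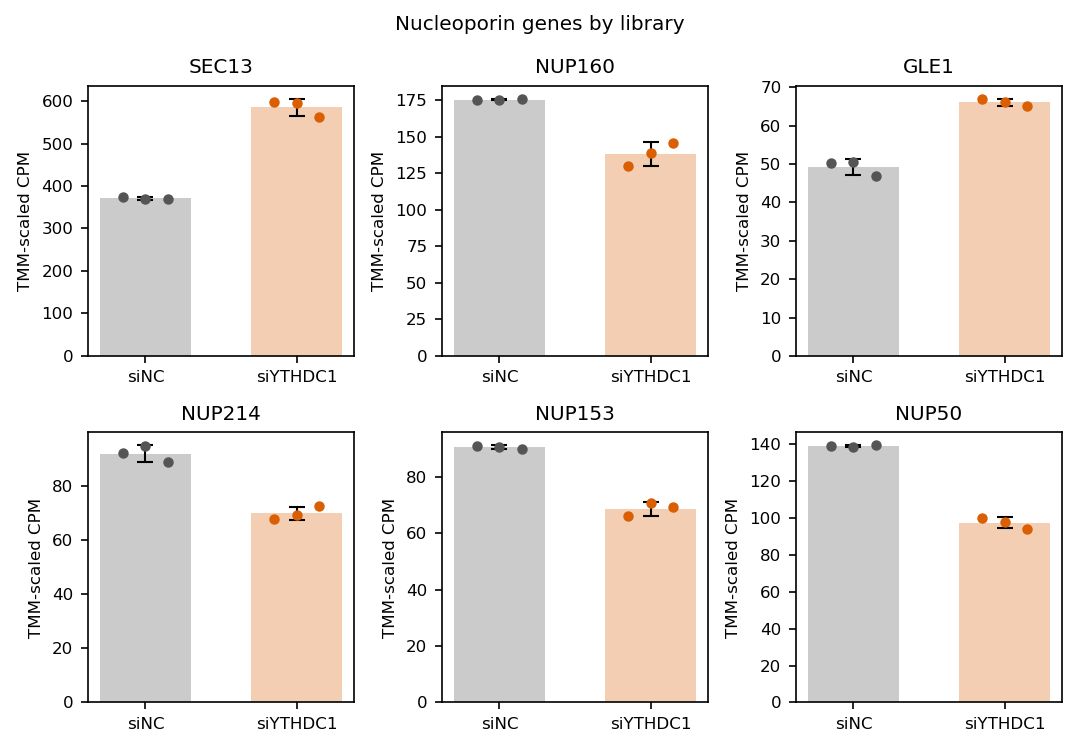
TMM-scaled CPM (y axis) of 6 nucleoporin genes in the siNC and siYTHDC1 libraries. Points are libraries, bars are means and error bars are SD over 3 libraries. SEC13 and GLE1 are higher and NUP160, NUP214, NUP153 and NUP50 lower in every siYTHDC1 library than in any siNC library.

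Sequence features of the transcripts were also set side by side. The longest transcript had a median of 3256 bases in the 8 genes that rose, 4817 bases in the 16 that fell and 5448 bases in the 18 not called, beside 3689 bases over 13472 protein-coding genes tested. Its GC content had a median of 49.5%, 44.0% and 47.1%, beside 48.6%. The pentamer GGACT, the most common form of the m6A consensus, occurred at a median of 0.784 per kilobase in the genes that rose, 0.994 in those that fell and 0.827 in those not called, beside 0.934. Across the 42 genes, which share the same 6 libraries, its density and the log2 fold change had a Spearman rho of 0.04 and a Pearson r of 0.0005. Split by call in the same order, the protein-coding genes tested had median lengths of 3750, 3796 and 3566 bases. Their median GC content was 48.2%, 49.5% and 48.3%, so it was higher in the genes that fell than in those that rose. Their GGACT medians were 0.926, 0.938 and 0.934 per kilobase. None of these medians was tested, those of the 42 genes rest on few genes, and a match is not a methylated site.

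The transport receptors and Ran-cycle genes that work through the pore fell more often than they rose. Of 40 genes listed, 38 passed the low-count filter, 21 fell and 7 rose, with a median log2 fold change of -0.16. Over the alternatives 16 to 21 fell and 5 to 7 rose. The share called was 73.7%, beside 53.4% of all genes, a background that the filter of 1 CPM in 3 libraries raised. KPNA2, an importin alpha gene, fell from 479.5 ± 20.5 to 294 ± 6.22 CPM (SD, n = 3 each), or -0.70 ± 0.03 on the log2 scale (SE; edgeR adjusted p = 9.02e-17). DDX19A, a paralog of the mRNA export helicase gene DDX19B, also fell (log2 fold change -0.62). DDX19B itself was not called (-0.07 ± 0.11, SE; edgeR adjusted p = 0.646), and sequence shared by these paralogs was not measured. TNPO1 (-0.61), the gene of the import receptor of hnRNP proteins, and NXF1 (-0.51), that of the main mRNA export receptor, fell as well. For DDX19A, TNPO1 and NXF1 the edgeR adjusted p was at most 4.01e-05. XPOT, the tRNA export receptor gene, rose from 90.3 ± 3.44 to 151 ± 6.6 CPM (SD, n = 3 each), or 0.74 ± 0.04 on the log2 scale (SE; edgeR adjusted p = 1.39e-14). XPO7 (0.26), IPO5 (0.22) and KPNA6 (0.17) rose less. KPNA6 lost its call without siNC replicate 2 (edgeR adjusted p = 0.0561, in a range of 0.00132 to 0.0561). The rows of KPNA7 and IPO4 were under the filter with at most 5 counts in any library.

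Of 37 other genes of the nuclear envelope, 34 passed the filter, 14 fell and 8 rose. The share called was 64.7%, beside 53.4% of all genes, a background that the stricter filter raised. Their median log2 fold change was -0.10 and their median absolute log2 fold change 0.24, beside 0.13 for the 42 genes above. LBR, the lamin B receptor and a sterol reductase, had siNC counts of 8120, 7577 and 7980 and siYTHDC1 counts of 2211, 2045 and 2199. Its fall from 227 ± 5.8 to 63.0 ± 1.46 CPM (SD, n = 3 each), or -1.85 ± 0.04 on the log2 scale (SE) was more than 2 times that of LMNB1 on the log2 scale. ZMPSTE24, the gene of the prelamin A protease, fell by 0.71, FNTB, that of a farnesyltransferase subunit, by 0.68 and TM7SF2, that of a sterol reductase related to LBR, by 0.47 on the log2 scale. FNTB was scarce, with means of 6.41 CPM in the siNC and 3.99 CPM in the siYTHDC1 libraries, and its SE was 0.16. ICMT, the gene of the methyltransferase that also acts on prelamin A, was not called (0.03 ± 0.04, SE; chosen after its value was seen). Leaving out genes below a mean of 1 CPM, the rises were largest in LEMD1 (0.89 ± 0.18), a LEM-domain gene, SYNE3 (0.86 ± 0.17), which encodes a nesprin, TOR4A (0.48 ± 0.04), of the torsin family, and NEMP2 (0.42 ± 0.10), an inner membrane protein gene (log2 fold change, SE). LEMD1 and SYNE3 were scarce, with means under 6 CPM in each group. Of the 4 other genes that rose, SYNE4, another nesprin gene, had the largest value of the list (1.12 ± 0.37, SE; edgeR adjusted p = 0.0135) at a mean of 0.602 CPM in the siNC libraries, and it lost its call without siYTHDC1 replicate 2 (range of edgeR adjusted p 0.00471 to 0.0629). ANKLE2, LPIN1 and NEMP1 rose by 0.08, 0.25 and 0.24, the call of ANKLE2 being lost in 6 of 15 alternatives. LBR and the 7 genes named before SYNE4 as changed had an edgeR adjusted p of at most 9.14e-04. SUN3, MLIP and NRM had at most 6 counts in any library and were not tested.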

How the data were processed

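The authors deposited 1 table of read counts for Ensembl genes in 6 libraries, not normalized, judging by its whole numbers and unequal totals. Per the submitters' processing notes the build was hg38. Of the aligner, the counting program, its strand setting and the annotation release, none is given in the sources used here. Per the labels' protocols the library kit is directional. Columns were assigned by matching names to sample titles, and 0 were unused. A table of gene names gave symbols for 61757 of 61860 genes and GENCODE release 29 for 101 more. Positions, exon overlaps and 75-base words shared between transcripts were computed from GENCODE release 29 on the same build.

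The quasi-likelihood test of edgeR 4.0.16 (R 4.3.3) was applied to these counts with TMM scaling, the default low-count filter (17372 genes) and the group as the only term, adjusted by Benjamini and Hochberg. Levels are TMM-scaled counts per 1000000 (CPM). SE is the absolute log2 fold change over the root of F. The script was tested on simulated data. DESeq2 1.42.0, limma-voom (limma 3.58.1), other scalings and filters, a replicate block and left-out libraries were alternatives. Libraries of 1 group differed by more than sampling noise (chi-square per degree of freedom 3.66 to 5.54).

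The genes, lists and tests were chosen with earlier results of these data known. Counts in every library are given for YTHDC1, the lamin and SUN genes, and up to 3 called genes per role ranked by absolute log2 fold change, with 1 CPM as the lowest mean. Of the transport and envelope lists up to 4 called genes each way were named by the same measures. KPNA7, IPO4, SUN3, MLIP and NRM were named beside that rule, since they could not be tested. SYNE4, ANKLE1, ANKLE2, LPIN1, NEMP1, TOR1AIP1, ICMT, KPNA4, CSE1L, MCM3AP and DDX19B lie outside it and were chosen after their values were seen. Uncalled genes of the set are given by log2 fold change. The level of 1 marker gene is not reported here.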

Additional observations from a re-analysis of the deposited data

How the results depend on the processing

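Over 15 alternatives, the 42 genes gave 13 to 17 falls and 7 or 8 rises, and 18 of the 24 called genes kept their call in all 15. The other 6 (NUP85, NUP37, AHCTF1, NUP35, NUP54 and LEMD2) lost it in 1 to 3 fits that left out 1 or 2 libraries. AHCTF1 lost it only without siNC replicate 2 and siYTHDC1 replicate 1 together (-0.14; edgeR adjusted p = 0.0571, in a range from 5.63e-04 to 0.0571). Of the 24 called genes, 0 changed sign. NUP205 and NUP42 gained a call in 1 fit each, and 16 genes were called in none. The median of the 42 genes ran from -0.07 to -0.04 on the log2 scale, and scaling moved the median of all genes by at most 0.01. Of the 28 called transport genes 10 lost their call in some alternative, KPNA4 in 12 of 15, CSE1L in 9 and MCM3AP in 8, and 3 of the 10 others gained one. Of the 22 called genes of the other envelope list 4 lost theirs (SYNE4, ANKLE1, ANKLE2 and TOR1AIP1) and 5 of the 12 others gained one, with 12 to 16 falls and 7 to 10 rises.

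YTHDC1 ran from -4.17 to 0.31 on the log2 scale when 1 library was left out. It was 0.31 without siNC replicate 2, a reversed direction (edgeR adjusted p = 0.691), and -1.77 without siYTHDC1 replicate 2. With limma-voom it was -1.83 (limma adjusted p = 0.0861), and DESeq2 gave no adjusted p. The cause was not tested.

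Replicate numbers did not pair the libraries: same-numbered libraries had correlations of deviations from -0.0165 to 0.00545 across genes. With the replicate number as a block, 8 of the 42 genes rose and 16 fell, as without it, and YTHDC1 was -1.68 (edgeR adjusted p = 0.0366). The ratio differences under that block equal those without it by arithmetic, so the block could not move them. They were -1.06 for LMNB1 to LMNA, -0.62 for LMNB1 to LMNB2 and -0.30 for SUN1 to SUN2 (exact sign-flip p = 0.25, the smallest possible).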

Other observations

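Grouping the nucleoporins by FG repeats, a split chosen after the values were seen, gave 7 falls and 0 rises among 12 FG genes (NUP35, NUP42, NUP50, NUP54, NUP58, NUP62, NUP98, NUP153, NUP214, RANBP2, POM121 and POM121C), with a median log2 fold change of -0.19. The share called was 58.3%, beside 53.4% of all genes, and the share fallen 58.3%, beside 27.1%. The stricter filter raised both backgrounds. The 20 other nucleoporin genes had 5 rises and 5 falls, with a median of -0.01. Calls lost in some alternatives were those of NUP35 and NUP54 among the FG genes and of NUP85, NUP37 and AHCTF1 among the others. The difference between these groups was not tested.

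SEC13 serves complexes outside the pore, and the genes of these were also looked at after its values were seen. Of 12 genes of the COPII coat and its assembly, 6 rose and 4 fell. The share called was 83.3%, beside 53.4% of all genes, a background that the stricter filter raised. SEC31A, the gene of the direct partner of SEC13 in the outer coat, rose from 64.2 ± 1.09 to 83.3 ± 4.79 CPM (SD, n = 3 each), or 0.38 ± 0.05 on the log2 scale (SE; edgeR adjusted p = 1.60e-07). SEC24D (0.54 ± 0.05) and SEC24A (0.53 ± 0.07), cargo adaptor genes of the inner coat, rose further. SAR1B, 1 of 2 listed genes of the GTPase that starts the coat, fell by 0.41 on the log2 scale. The other, SAR1A, rose by 0.11 (edgeR adjusted p = 0.0260) and was more abundant, at 80.2 CPM beside 29.5 CPM for SAR1B in the siNC libraries. SEC16A, the gene of an exit site scaffold, fell by 0.29 on the log2 scale. The GATOR2 genes MIOS (-0.19 ± 0.08), WDR24 (0.21 ± 0.09) and WDR59 (-0.09 ± 0.06) were not called.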
